A study of Mus musculus with 13 samples.

Results

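The genes described here are 8 components and regulators of the complement system, Cd55, Cd59a, Cd46, Serping1, C1ra, C4b, Masp1 and C3. They were chosen by name from the 57010 genes listed in each library, with earlier results of these data known. RNA was sequenced from mouse embryonic fibroblasts (MEFs) of wild-type mice. The 4 groups were untreated control MEFs, MEFs made senescent with 2 μM etoposide for 24 h followed by 5 days of culture, and senescent MEFs given Fucoidan-FV at 100 or at 300 μg/mL for 12 h before RNA was taken. Etoposide is a topoisomerase II poison that damages DNA, and Fucoidan-FV is a sulfated polysaccharide from the brown seaweed Fucus vesiculosus. Each group has mice 4, 5 and 6, and control mouse 5 has a pair of libraries, 5(1) and 5(2), whose counts were summed, so that 13 libraries gave 12 samples. All 3 senescent groups share the same inducer of senescence, and no control MEFs were given Fucoidan-FV.

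Complement is a cascade of proteases and binding proteins that marks surfaces for clearance. The classical pathway starts when C1, which holds the proteases C1r and C1s, cleaves C4 and C2, and the lectin pathway reaches the same step through mannose-binding lectins or collectins and the MASP proteases. Both pathways form a convertase that cleaves C3, the central component. Host cells limit the cascade with membrane proteins (CD55 speeds the decay of the convertases, CD46 is a cofactor for cleaving C3b and C4b, CD59 blocks the membrane attack complex) and with soluble inhibitors such as the C1 inhibitor, encoded by Serping1. The liver makes most of the complement of plasma, and fibroblasts are also known to make several components.

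The total count per library ran from 22782536 to 31278750. Cdkn1a and Cdkn2a, which encode the cell cycle inhibitors p21 and p16, were higher in senescent than in control MEFs by 1.82 (SE 0.18, adjusted p = 6.8e-05) and 2.46 (SE 0.25, adjusted p = 7.24e-05) on the log2 scale. The summed level of 10 fibroblast markers was 13050 to 17570 counts-per-million (CPM) in each sample, and 8 or 9 of them had a mean above 10 CPM in each group. This sum does not show how single markers moved. Col3a1, Dcn and Lum, which encode a collagen and 2 matrix proteoglycans, were called higher at 100 μg/mL than in senescent MEFs, by 1.38 (adjusted p = 0.0164), 2.33 (adjusted p = 0.0477) and 3.29 (adjusted p = 0.0399) on the log2 scale. Vim, the gene of the filament protein vimentin, had a log2 fold change of −0.87 (adjusted p = 0.0245) in that comparison, short of the size needed for a call. In senescent against control MEFs 2 of the 10 fibroblast markers were called higher and 1 lower, beside 4.47% and 3.95% of all tested genes. At 300 μg/mL against senescent MEFs 1 was called higher, beside 0.752% of all tested genes. No macrophage, hepatocyte, endothelial or epithelial marker reached a mean of 10 CPM in any group. The summed level of 11 macrophage markers was 3.57 to 5.48 CPM in control, 3.61 to 14.95 in senescent, 7.26 to 16.7 at 100 μg/mL and 5.35 to 13.6 at 300 μg/mL, and that of 7 endothelial markers was 1.32 to 2.76, 1.47 to 3.77, 6.48 to 13.4 and 5.35 to 8.82 CPM. Tek, an endothelial receptor gene, was called higher at 100 μg/mL than in senescent MEFs (log2 fold change 3.58, adjusted p = 0.0446), with means of 0.481 and 5.87 CPM in senescent MEFs and at 100 μg/mL. Of the 5 endothelial markers tested, the other 4 were not called. Means in the same groups were also higher for Pecam1 (0.220 and 0.497 CPM), Emcn (0.518 and 0.999) and Vwf (0.244 and 0.932). They were lower for Cdh5 (0.247 and 0.165 CPM) and Kdr (0.633 and 0.435), and Tie1 had 0 and 1 counts. The summed level of 9 hepatocyte markers was 0.850 to 2.68 CPM in control and 1.835 to 3.451 CPM in senescent MEFs. It was 0.757 to 2.145 CPM at 100 μg/mL and 0.498 to 3.235 CPM at 300 μg/mL. Alb, the defining gene of hepatocytes, had 1 or 2 counts in each group. In control, senescent, 100 and 300 μg/mL, Apoa2 had 25, 65, 63 and 126 counts and Apob had 128, 129, 69 and 9. Against control MEFs, 1 of 9 tested macrophage markers was called higher at 100 μg/mL and 2 at 300 μg/mL. Of 5 tested endothelial markers 1 was called higher at each dose, and of 10 fibroblast markers 3 and 4. Over all tested genes 10.3% and 9.87% were called higher in these comparisons. The part that other cell types have in the results was not tested, and in bulk RNA fewer cells of a type and less RNA per cell cannot be told apart.

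Across the 12 samples, 7 of the 8 genes had enough counts to be tested, and C3 did not. In the comparisons that follow, a gene is called when edgeR's quasi-likelihood test gives a Benjamini-Hochberg adjusted p under 0.05 over 15034 genes and the log2 fold change exceeds 1 in size. In senescent against control MEFs, 2 of the 7 were called, both higher (Cd55 and Serping1), where 8.42% of all tested genes were called (4.47% higher and 3.95% lower). Against senescent MEFs, 3 of the 7 were called at 100 μg/mL Fucoidan-FV, all higher (Cd55, C1ra and Serping1), beside 2.69% of all genes (1.1% higher and 1.6% lower). At 300 μg/mL, 1 was called, higher (Cd55), beside 1.64% of all genes (0.752% higher and 0.885% lower). None of the 7 was called between the doses. The median log2 fold change of the 7 genes was 1.62 in senescent against control MEFs (0.07 over all tested genes), 1.81 at 100 μg/mL against senescent MEFs (−0.02 over all tested genes) and 1.54 at 300 μg/mL (0.00026 over all tested genes). The comparisons of each dose with senescent MEFs share the same senescent samples. Since the genes were chosen with earlier results of these data known, the shares and medians over all genes do not test the set.

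**Figure D1:**
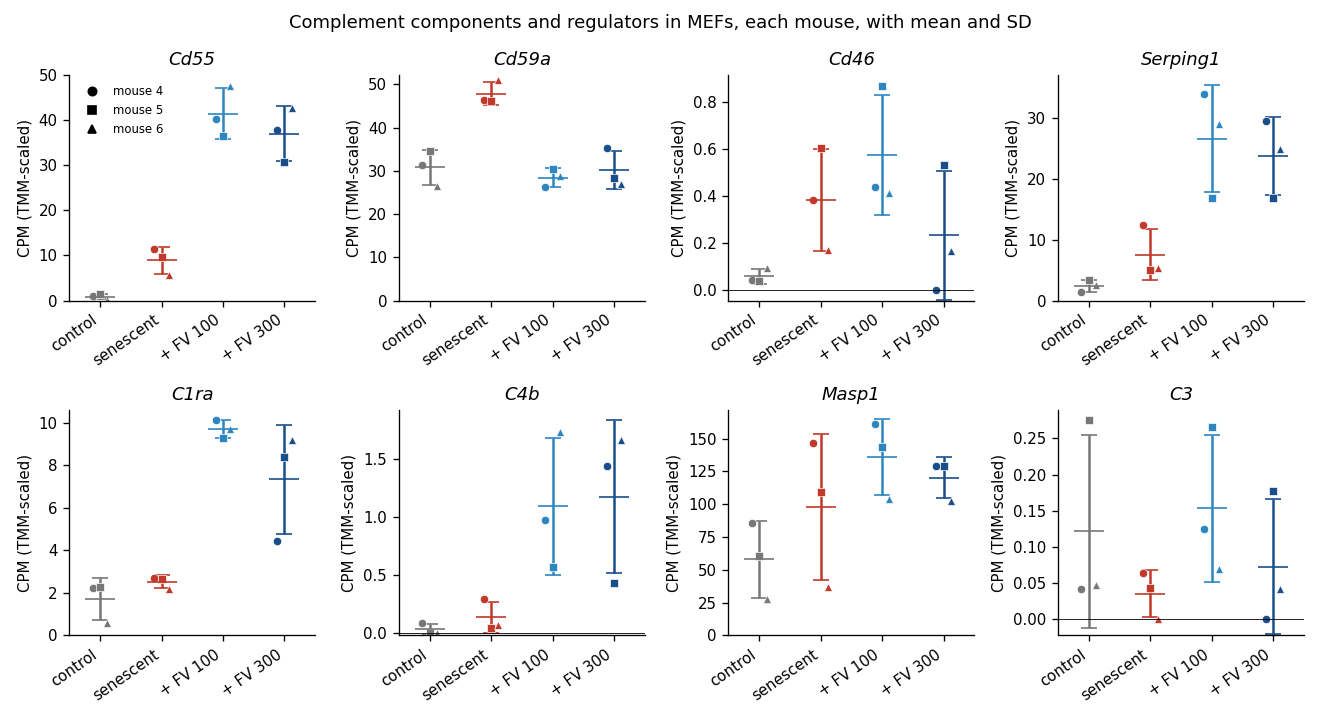
Level of each gene in CPM (counts-per-million, scaled by TMM factors, linear axes that differ between panels) in control MEFs, senescent MEFs and senescent MEFs with 100 or 300 μg/mL Fucoidan-FV. Symbols are mice 4, 5 and 6, horizontal lines are means and bars are SD. The 3 samples of Cd55 at either dose lie above the 3 senescent samples, and Cd59a is highest in the senescent samples.

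Of the membrane regulators, Cd55 (ENSMUSG00000026399, GRCm39 chr1:130366469-130390926, minus strand) showed the largest differences that were called among the 8 genes against senescent MEFs. It encodes decay-accelerating factor, a protein held in the membrane by a lipid anchor. In control MEFs its level was 1.02, 1.41 and 0.188 CPM in mice 4, 5 and 6, and in senescent MEFs it was 11.5, 9.70 and 5.61 CPM. Treatment with 100 μg/mL Fucoidan-FV gave 40.3, 36.4 and 47.7 CPM, and 300 μg/mL gave 37.7, 30.7 and 42.7 CPM. The control, senescent and treated samples do not overlap with each other, while the samples of both doses do overlap.

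Cd55 was 9.75-fold higher in senescent than in control MEFs (log2 fold change 3.29, SE 0.49, adjusted p = 0.000814). It was a further 4.64-fold higher with 100 μg/mL Fucoidan-FV (2.21, SE 0.45, adjusted p = 0.0172) and 4.14-fold higher with 300 μg/mL (2.05, SE 0.45, adjusted p = 0.0332). All 3 mice showed each of these increases. Against control MEFs Cd55 was higher by 5.50 (SE 0.53, adjusted p = 1.73e-05) and 5.34 (SE 0.53, adjusted p = 2.14e-05) on the log2 scale. With the mouse as a block, the call at 300 μg/mL was lost (2.12, adjusted p = 0.0543). The call at 300 μg/mL was also lost without any 1 of the 6 samples compared (adjusted p = 0.05 to 0.157), and that at 100 μg/mL without senescent mouse 5 or any 1 of the 3 treated samples (0.0506 to 0.0604). Log2 fold changes stayed between 2.10 and 2.61 at 100 μg/mL and between 1.84 and 2.35 at 300 μg/mL when 1 sample was left out.

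The sequence before the start of the Cd55 transcript is shown because the gene rose in 2 successive comparisons. The window holds the 250 bases of GRCm39 before the start of the canonical transcript of GENCODE M39 (chr1:130390927-130391176, minus strand), written 5′ to 3′ on the strand of the gene. Capitals mark a match to the core of the interferon-stimulated response element (GAAANNGAA, searched on both strands), 175 to 167 bases before the start.

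Cd55: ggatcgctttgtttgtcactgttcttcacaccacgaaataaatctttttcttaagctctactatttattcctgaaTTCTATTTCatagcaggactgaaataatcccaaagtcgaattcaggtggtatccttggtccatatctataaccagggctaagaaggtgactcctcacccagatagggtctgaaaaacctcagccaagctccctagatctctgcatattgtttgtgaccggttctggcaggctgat

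Of 21651 such windows of protein-coding genes, 7.54% hold this motif. The window of Cd55 held no match to the STAT motif TTCNNNGAA (7.72% of windows), the NF-κB core GGANNTTCC (3.88%), the AP-1 motif TGANTCA (6.19%) or the C/EBP core TTGCNNAA (9.36%). A match is a run of letters and not a measured site, and none was tested against the expression values. An exon of Gm16083, on the opposite strand, lies in this window, and 11.5% of the exonic bases of Cd55 lie under exons of that strand. The library kit keeps strand, but whether reads were counted by strand is not given in the sources used here.

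Cd59a (ENSMUSG00000032679, chr2:103926132-103947029, plus strand) encodes the inhibitor of the membrane attack complex. It was 31.3, 34.6 and 26.6 CPM in control mice 4, 5 and 6, 46.3, 46.2 and 51.0 CPM in senescent MEFs, 26.2, 30.4 and 28.8 CPM with 100 μg/mL Fucoidan-FV, and 35.2, 28.4 and 27.0 CPM with 300 μg/mL. In these CPM all 3 senescent samples lie above every other sample, and the treated and control samples overlap. No difference passed the test. The log2 fold change was 0.63 in senescent against control MEFs (SE 0.20, adjusted p = 0.0558), −0.75 at 100 μg/mL (SE 0.20, adjusted p = 0.0518) and −0.66 at 300 μg/mL against senescent MEFs (SE 0.20, adjusted p = 0.113), with 3 of 3 mice in the same direction each time. Against control MEFs it was −0.12 (95% interval −0.54 to 0.31) and −0.03 (−0.46 to 0.40) at the 2 doses. Cd59a and Cd55 had opposite signs against senescent MEFs at both doses.

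Cd46 (ENSMUSG00000016493, chr1:194719134-194774561, minus strand), the membrane cofactor protein, was near the limit of detection. Its counts summed to 5 in control, 31 in senescent, 49 at 100 μg/mL and 19 at 300 μg/mL, and its level was 0.0393 to 0.0940, 0.170 to 0.604, 0.415 to 0.871 and 0 to 0.533 CPM. The log2 fold change of senescent against control MEFs was 2.68 with a 95% interval of −0.04 to 5.40 (adjusted p = 0.202), and that of 100 μg/mL against senescent MEFs was 0.58 (−1.82 to 2.97, adjusted p = 0.831). At 300 μg/mL it was −0.70 (−3.15 to 1.75, adjusted p = 0.847). At 100 μg/mL against control MEFs it was 3.26 (0.52 to 6.00) and missed the threshold (adjusted p = 0.0747), while DESeq2 (3.44, adjusted p = 0.0356) and a fit of only these 2 groups (3.38, adjusted p = 0.0265) called it. The low level of Cd46 does not hold for membrane regulators as a whole. Another of them, Cr1l, named after its values were seen, had means of 62.2 CPM in control and 52.8 CPM in senescent MEFs. Its means were 52.4 CPM at 100 μg/mL and 54.8 CPM at 300 μg/mL.

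The soluble regulator Serping1 (ENSMUSG00000023224, chr2:84595705-84620873, minus strand) encodes the C1 inhibitor, a serpin that inactivates C1r, C1s and the MASP proteases. It was 1.44, 3.40 and 2.49 CPM in control mice 4, 5 and 6 and 12.4, 5.00 and 5.37 CPM in senescent MEFs. Senescent MEFs with 100 μg/mL Fucoidan-FV had 34.0, 16.9 and 29.1 CPM, and those with 300 μg/mL had 29.6, 16.9 and 24.9 CPM. The control, senescent and treated samples do not overlap with each other. Mouse 4 has the highest level in the senescent group and at both doses.

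Serping1 was 3.08-fold higher in senescent than in control MEFs (log2 fold change 1.62, SE 0.44, adjusted p = 0.0296) and 3.51-fold higher with 100 μg/mL Fucoidan-FV than in senescent MEFs (1.81, SE 0.43, adjusted p = 0.0382). At 300 μg/mL the log2 fold change was 1.65 and missed the threshold (SE 0.43, adjusted p = 0.0741). Against control MEFs it was higher by 3.43 (SE 0.47, adjusted p = 0.000184) and 3.27 (SE 0.46, adjusted p = 0.000262). With the mouse as a block, the call of senescent against control (1.46, adjusted p = 0.0657) and that at 100 μg/mL (1.85, adjusted p = 0.0504) were lost, while those against control at both doses were kept (adjusted p = 0.000663 and 0.000925). Libraries 5(1) and 5(2) of the same control mouse held 48 and 125 counts of Serping1, or 1.57 and 5.10 CPM of the library's total. With 5(2) alone as control mouse 5, the adjusted p of senescent against control was 0.126 (log2 fold change 1.3). That call was also lost without control mouse 4, control mouse 6 or senescent mouse 4 (adjusted p = 0.106, 0.0644 and 0.133, log2 fold changes 1.36, 1.65 and 1.05). The call at 100 μg/mL was lost without any 1 of 5 of the 6 samples (adjusted p = 0.0537 to 0.154), all but senescent mouse 4, without which it was 0.0174 (log2 fold change 2.53).

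Of the classical pathway genes, C1ra (ENSMUSG00000055172, chr6:124489364-124500402, plus strand) encodes the protease C1r, which activates C1s. It was 2.25, 2.30 and 0.564 CPM in control mice 4, 5 and 6 and 2.72, 2.67 and 2.17 CPM in senescent MEFs, and these groups overlap. With 100 μg/mL Fucoidan-FV it was 10.1, 9.28 and 9.69 CPM, and with 300 μg/mL it was 4.42, 8.39 and 9.21 CPM. All 6 treated samples lie above all 6 others, and mouse 4 at 300 μg/mL is the lowest of the treated samples.

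C1ra did not differ detectably between senescent and control MEFs (log2 fold change 0.55, 95% interval −0.49 to 1.59, adjusted p = 0.544). It was 3.84-fold higher with 100 μg/mL than in senescent MEFs (1.94, SE 0.49, adjusted p = 0.0452), and at 300 μg/mL the log2 fold change was 1.54 (SE 0.49, adjusted p = 0.130). Against control MEFs it was higher by 2.49 (SE 0.50, adjusted p = 0.00264) and 2.09 (SE 0.50, adjusted p = 0.00785). With the mouse as a block the call at 100 μg/mL was lost (1.96, adjusted p = 0.0699), as it was without any 1 of the 6 samples (adjusted p = 0.0726 to 0.153).

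C1ra is also one of the genes with a single transcript in the annotation used for counting, and such genes moved together between libraries. Over 964 genes with 1 listed transcript, the median log2 deviation from their means was lowest in control mouse 6 (−1.56) and highest in mouse 5 at 100 μg/mL (1.22). It was −1.23 in library 5(1) and 0.847 in library 5(2) of the same mouse, and −1.14 in mouse 4 at 300 μg/mL. Over 8266 genes with 4 or more transcripts it ran from −0.103 to 0.11. With an offset for the share of a gene's exonic sequence that lies in 1 transcript, an alternative chosen after these values were seen, the log2 fold change of C1ra at 100 μg/mL against senescent MEFs was 1.32 (adjusted p = 0.122), and that against control MEFs was 2.09 (adjusted p = 0.00535). With the same offset Cd55 and Serping1 at 100 μg/mL had log2 fold changes of 2.35 (adjusted p = 0.0122) and 1.94 (adjusted p = 0.0227).

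C1ra has a near copy on the same chromosome, C1rb, from which reads cannot always be told apart. The coding sequences of the canonical transcripts are identical at 2076 of 2118 aligned bases (98.0%), and of the 31-base runs in the transcripts of C1ra, 51.7% also occur in transcripts of C1rb. The 60-base stretch of the alignment with the most mismatches is shown because reads over it separate the genes. It starts at coding base 1798 of C1ra and 1795 of C1rb, both counted from the start codon, and capitals mark the 11 bases that differ.

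C1ra: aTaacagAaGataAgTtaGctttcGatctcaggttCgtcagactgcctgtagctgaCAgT
C1rb: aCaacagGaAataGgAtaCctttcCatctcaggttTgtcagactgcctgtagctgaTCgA

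Expected counts divide reads that match both genes, so the level of C1ra is uncertain to that extent. C1rb itself was 0.235 to 0.707 CPM in control, 0.849 to 2.28 in senescent, 0.871 to 4.67 at 100 μg/mL and 1.74 to 3.82 CPM at 300 μg/mL. Its log2 fold change was 0.57 at 100 μg/mL (SE 0.74, adjusted p = 0.729) and 0.72 at 300 μg/mL against senescent MEFs (SE 0.74, adjusted p = 0.721).

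C4b (ENSMUSG00000073418, chr17:34947354-34962912, minus strand) encodes complement C4, the first substrate of the activated C1 complex. It was barely counted outside the treated cells. Control mice 4, 5 and 6 held 2, 0 and 0 counts and senescent mice 9, 1 and 2 counts. At 100 μg/mL Fucoidan-FV the counts were 31, 15 and 50 (0.970, 0.568 and 1.73 CPM), and with 300 μg/mL they were 37, 12 and 40 (1.43, 0.427 and 1.66 CPM). All 6 treated samples lie above all 6 others. How many of all tested genes separate in this way was not counted, here or for the other genes.

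Against senescent MEFs the log2 fold change of C4b was 2.97 at 100 μg/mL (SE 1.14, 95% interval 0.51 to 5.43, adjusted p = 0.165) and 3.07 at 300 μg/mL (SE 1.15, 0.60 to 5.54, adjusted p = 0.207), so neither passed the test. Against control MEFs both doses were called (adjusted p = 0.0118 and 0.0114). With only 2 counts in the control group, the ratio of summed and scaled counts was 52.7 at 100 μg/mL, with a counting interval of 14.2 to 441 (95%, exact), and 54.6 at 300 μg/mL, with an interval of 14.7 to 458. These intervals cover counting error only. For senescent against control MEFs the ratio was 6.85 with an interval of 1.52 to 63.0 (adjusted p = 0.318). C4b shares 42% of its 31-base runs with C4a, whose coding sequence is 96.2% identical, and C4a had 0 to 13 counts in each sample.

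The windows before the starts of the other 3 genes that were called in any comparison are shown beside that of Cd55, since these 4 genes were all higher at both doses than in control MEFs. They are 250 bases each in GRCm39, on the strand of the gene: Serping1 at chr2:84605789-84606038, minus strand (its canonical transcript starts inside the annotated span of the gene), C1ra at chr6:124489114-124489363, plus strand, and C4b at chr17:34962913-34963162, minus strand. Capitals mark matches to the 5 motifs.

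Serping1: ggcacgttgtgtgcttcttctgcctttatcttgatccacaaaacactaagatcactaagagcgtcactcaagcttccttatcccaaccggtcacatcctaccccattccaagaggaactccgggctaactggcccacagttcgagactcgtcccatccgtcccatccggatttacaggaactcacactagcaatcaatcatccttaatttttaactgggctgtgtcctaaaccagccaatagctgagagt
C1ra: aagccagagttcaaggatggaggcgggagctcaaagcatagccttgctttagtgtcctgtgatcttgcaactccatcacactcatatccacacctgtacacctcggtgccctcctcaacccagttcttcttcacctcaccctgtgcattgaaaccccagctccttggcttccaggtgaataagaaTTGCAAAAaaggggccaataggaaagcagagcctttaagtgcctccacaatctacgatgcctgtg
C4b: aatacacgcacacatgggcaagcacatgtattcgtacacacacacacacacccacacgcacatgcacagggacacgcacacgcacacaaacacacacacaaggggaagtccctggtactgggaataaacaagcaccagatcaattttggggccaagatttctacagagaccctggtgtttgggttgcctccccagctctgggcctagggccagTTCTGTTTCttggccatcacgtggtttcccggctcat

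C4b holds a match to the interferon-stimulated response element core, 37 to 29 bases before its start, as Cd55 does farther upstream. C1ra holds a match to the C/EBP core 65 to 58 bases before its start. The window of Serping1 holds none of the 5 motifs, so no motif searched is shared by the 4 genes. Cd59a, which was not called in any comparison, also holds the interferon-stimulated response element core, 173 to 165 bases before its start.

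Of the lectin pathway, Masp1 (ENSMUSG00000022887, chr16:23268167-23339779, minus strand) encodes a protease that starts this pathway. Masp1 was 85.8, 60.5 and 27.5 CPM in control mice 4, 5 and 6 and 147, 109.4 and 37.1 CPM in senescent MEFs. It was 161, 143 and 104 CPM with 100 μg/mL Fucoidan-FV and 129, 129 and 102 CPM with 300 μg/mL. Mouse 6 was the lowest sample of every group, and the senescent group overlaps with each of the others. The log2 fold change was 0.75 in senescent against control MEFs (SE 0.44, adjusted p = 0.317), 0.48 at 100 μg/mL (SE 0.44, adjusted p = 0.603) and 0.30 at 300 μg/mL against senescent MEFs (SE 0.44, adjusted p = 0.822). Against control MEFs, where the samples do not overlap, it was 1.23 at 100 μg/mL (SE 0.44, adjusted p = 0.0555) and 1.05 at 300 μg/mL (SE 0.44, adjusted p = 0.101). With the mouse as a block both of these passed the test (1.35, adjusted p = 0.00696, and 1.21, adjusted p = 0.0131). The difference at 100 μg/mL was also called by DESeq2 (adjusted p = 0.0116), with RLE factors (0.0395), with no filter (8.819e-05) or the minimum of 10 counts in every sample (0.0406), in a fit of only these 2 groups (0.0379), with library 5(1) alone (0.0370) or both libraries as separate samples (0.0382), with the offsets and the block together (0.0477) and without control mouse 4 (0.0320). That at 300 μg/mL was also called with no filter (0.00200), with the offsets (0.0417) and with the offsets and the block together (0.0275).

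C3 (ENSMUSG00000024164, chr17:57510964-57535155, minus strand), the component on which the pathways meet, was almost absent from these RNAs. Its counts were 1, 14 and 1 in control mice 4, 5 and 6, 2, 1 and 0 in senescent MEFs, 4, 7 and 2 at 100 μg/mL and 0, 5 and 1 at 300 μg/mL. In control mouse 5 library 5(1) held 2 of these counts and library 5(2) held 12. C3 was too low to be tested, so no comparison of its groups is given.

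Between genes, levels can be compared only per length, here as transcripts-per-million (TPM), with mean and SD over n = 3 mice. In control MEFs the order was Cd59a (26.9 ± 4.66), Masp1 (23.7 ± 10.6), Serping1 (2.40 ± 1.32), C1ra (0.793 ± 0.462) and Cd55 (0.525 ± 0.374), with C3, Cd46 and C4b at means of 0.0533, 0.0133 and 0.00667. Cd59a and Masp1 overlapped in range, as did C1ra and Cd55. In senescent MEFs the order was Masp1 (45.7 ± 30.6), Cd59a (42.5 ± 4.43), Serping1 (8.10 ± 5.37), Cd55 (5.67 ± 2.39) and C1ra (1.19 ± 0.282), where Masp1 overlapped with both Cd59a and Serping1, and Serping1 also overlapped with Cd55. With 100 μg/mL Fucoidan-FV the order was Masp1 (74.2 ± 18.1), Cd55 (36.9 ± 4.27), Cd59a (34.3 ± 3.91), Serping1 (34.0 ± 11.6), C1ra (6.18 ± 0.751) and C4b (1.05 ± 1.08). Cd55, Cd59a and Serping1 overlapped there, so that Cd55, far below Cd59a in control and senescent MEFs, reached a level within the range of Cd59a. With 300 μg/mL Cd55 was 31.1 ± 4.71 and Cd59a 32.0 ± 3.16 TPM, and Serping1 was 27.8 ± 4.71 TPM. The groups of Cd59a stood otherwise in TPM than in CPM. Its samples were 38.1 to 47.0 TPM in senescent MEFs and 31.6 to 38.8 TPM at 100 μg/mL, which overlap. Those at 100 μg/mL all lie above control (21.6 to 30.6 TPM), and those at 300 μg/mL (28.4 to 34.1 TPM) overlap with control. The measure also mattered for Cr1l and Vim. Cr1l, with like means in CPM, was 49.1 to 65.5 TPM in senescent MEFs. It was 68.3 to 87.4 TPM at 100 μg/mL and 71.4 to 76.5 TPM at 300 μg/mL. Means of Vim in senescent MEFs and at 100 μg/mL were 7729 and 4227 CPM, but 9417 and 7003 TPM.

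**Figure D2:**
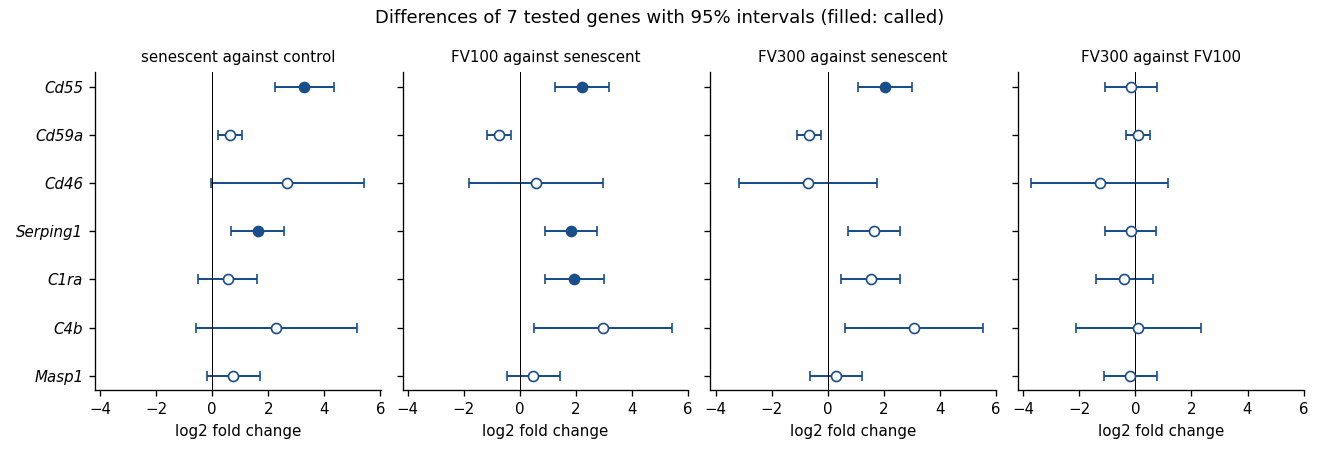
Log2 fold changes (horizontal axis) of the 7 tested genes in 4 comparisons, where bars are 95% intervals from the quasi-likelihood fit and filled points are genes that were called. Cd55 is filled in 3 panels, and the intervals of all 7 genes span 0 in the comparison of the doses.

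Between the doses, the question was whether 300 μg/mL differed from 100 μg/mL. None of the 7 genes was called by edgeR or by DESeq2, where edgeR called 0.00665% of all genes (1 gene), and none had an unadjusted p under 0.05 (0 of 7). The difference of 300 from 100 μg/mL was −0.16 for Cd55 (95% interval −1.08 to 0.76), −0.17 for Serping1 (−1.07 to 0.74), −0.40 for C1ra (−1.42 to 0.61), 0.10 for C4b (−2.12 to 2.32), 0.09 for Cd59a (−0.34 to 0.51) and −0.18 for Masp1 (−1.12 to 0.76) on the log2 scale. For Cd46 it was −1.27 (−3.72 to 1.17). The interval of Cd59a is the one that stays within 1 in both directions, and that of each of the others reaches below −1.

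Against control MEFs, 4 of the 7 tested genes were called at each dose, all higher (Cd55, Serping1, C1ra and C4b), beside 19.6% of all genes at 100 μg/mL (10.3% higher and 9.38% lower) and 18% at 300 μg/mL (9.87% higher and 8.11% lower). These comparisons share the control samples. All 4 were called at both doses when any 1 sample was left out and with the mouse as a block.

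The wider list held 56 complement genes, of which 29 were tested, the 7 genes above among them. In senescent against control MEFs 6 of the 29 were called, all higher, where 8.42% of all tested genes were called (4.47% higher). The median log2 fold change of the 29 genes was 0.91 beside 0.07 over all tested genes. Beside Cd55 and Serping1 the called genes included C2, C1s1 and Colec11. C2, the protease part of the classical convertase, was 0.0425, 0.294 and 0.705 CPM in control mice 4, 5 and 6 and 6.36, 5.39 and 2.92 CPM in senescent MEFs (log2 fold change 3.83, SE 0.72, adjusted p = 0.0038). Its control and senescent samples do not overlap.

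C1s1, which encodes the protease that C1r activates, was 0.595, 4.34 and 1.03 CPM in control and 7.29, 11.3 and 6.32 CPM in senescent MEFs (log2 fold change 2.01, SE 0.61, adjusted p = 0.0479). Colec11, a collectin of the lectin pathway, had 0 counts in all 3 control mice and 30, 1 and 37 counts in senescent mice 4, 5 and 6. Its summed level in senescent MEFs was 25.9-fold that of a floor of 3 counts set for the control group. This ratio is no lower bound, since the exact counting interval of senescent against control MEFs starts at 20.5-fold. That interval covers counting error only. Colec11 was called by the quasi-likelihood test (adjusted p = 0.0198), and senescent mouse 5 stands close to the controls. With the mouse as a block, 3 of the 6 calls remained, those of Cd55 and C2 among them, and the adjusted p was 0.0535 for C1s1 and 0.0511 for Colec11. The call of C1s1 was lost without control mouse 4 or 6 or senescent mouse 4 or 5 (adjusted p up to 0.121) and that of Colec11 without control mouse 4 or 5 (up to 0.0663). C2 kept its call without any 1 sample (adjusted p up to 0.0266).

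With 100 μg/mL Fucoidan-FV against senescent MEFs, no gene of the list was called beyond Cd55, Serping1 and C1ra, and at 300 μg/mL none beyond Cd55. The median log2 fold change of the 29 genes was 0.20 at 100 μg/mL and 0.23 at 300 μg/mL, beside −0.02 and 0.00026 over all tested genes. The log2 fold changes at 100 μg/mL of C2, C1s1 and Colec11, which rose with senescence, were −0.13 for C2 (SE 0.62, adjusted p = 0.937), 1.51 for C1s1 (SE 0.59, adjusted p = 0.173) and −1.42 for Colec11 (SE 1.16, adjusted p = 0.552). At 300 μg/mL they were 0.16 for C2, 1.54 for C1s1 and −0.29 for Colec11 (adjusted p = 0.221 to 0.945).

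**Figure D3:**
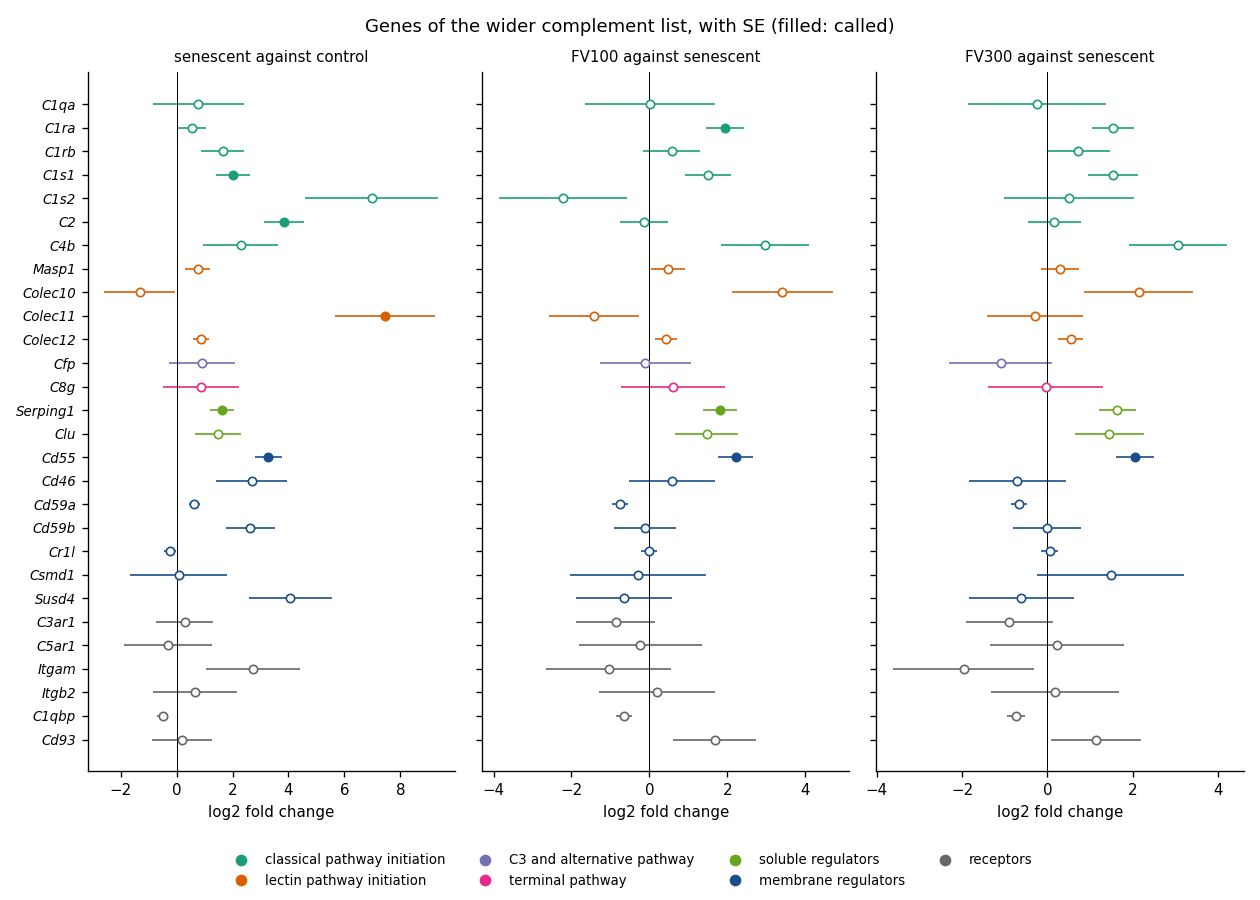
Log2 fold changes (horizontal axes, which differ in range) of 28 of the 29 tested genes of the wider complement list in senescent against control MEFs and in each dose of Fucoidan-FV against senescent MEFs. Bars are SE, colours are roles and filled points are called genes, of which 5, 3 and 1 are plotted from left to right. The fitted value of Colec11 in the left panel rests on a control group with 0 counts and is no bound.

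By role, only 1 of 4 genes of C3 and the alternative pathway and 1 of 7 terminal pathway genes were tested. Neither was called in senescent against control MEFs, nor was any of 6 tested receptors. Beside 8.42% of all tested genes called there, sets of this size are too small to compare. Against control MEFs, 12 of the 29 tested genes were called higher and 1 lower at 100 μg/mL, beside 10.3% and 9.38% of all genes. At 300 μg/mL 13 were called higher and 1 lower, beside 9.87% and 8.11% of all genes. Cd55, Serping1, C1ra and C4b are among the higher genes at each dose. The gene that was lower at both doses was C1qbp, named after its values were seen, which encodes a mitochondrial protein that also binds C1q (log2 fold changes −1.16, adjusted p = 0.00129, and −1.23, adjusted p = 0.000933).

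The genes whose log2 CPM followed each called gene most closely over the 12 samples were found by Pearson's r over all tested genes. For Cd55 they were Thra, a thyroid hormone receptor (r = 0.997), Lgr5, an R-spondin receptor (0.986), and Gpx3, a secreted glutathione peroxidase (0.985). For Serping1 they were Smpdl3a (0.967), the collagen-binding integrin gene Itga11 (0.966) and Cped1 (0.964). For C1ra they included the angiotensin receptor gene Agtr1a (0.990) and the activin receptor gene Acvr2a (0.979). Among the tested genes of the 8, r was 0.92 between Cd55 and both Serping1 and C1ra, 0.91 between C4b and Serping1, and −0.08 between Cd55 and Cd59a. These values describe 12 samples that share 4 groups and 3 mice, and the differences between the groups enter them.

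**Figure D4:**
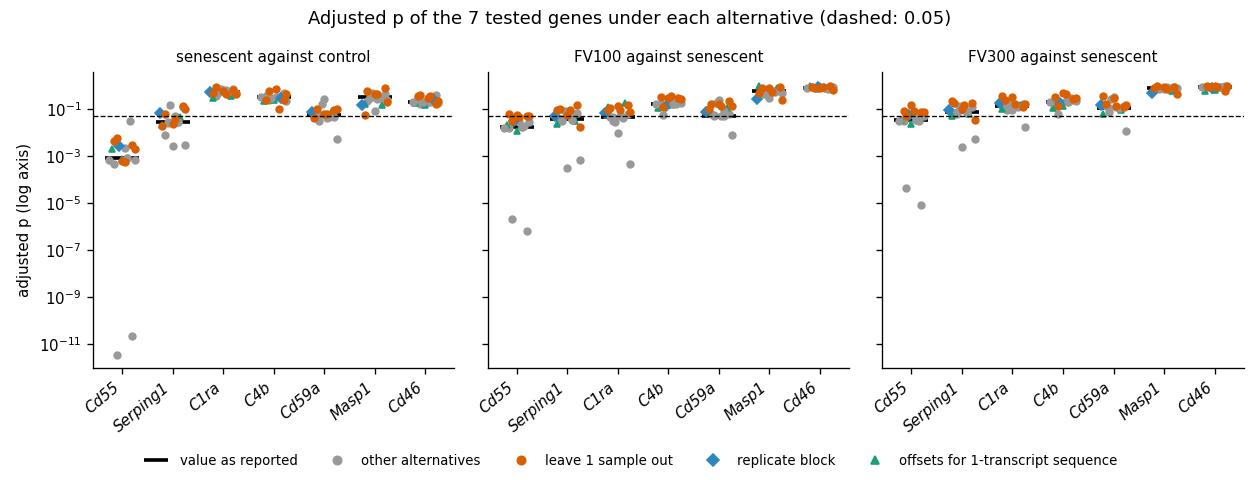
Adjusted p (vertical log axis) of the 7 tested genes in 3 comparisons as reported (black lines) and under each alternative setting (points), with a dashed line at 0.05. Cd55 stays below the line throughout in senescent against control MEFs, whereas the points of Cd55, Serping1 and C1ra lie on both sides of it for the comparisons of Fucoidan-FV with senescent MEFs.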

How the data were processed

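The authors trimmed reads with Trimmomatic and aligned them to GRCm39 with STAR 2.7.11b. They deposited RSEM 1.3.1 expected counts per gene without normalization, with TPM values beside them (scaled by RSEM for length and depth). TPM served here to compare levels between genes and, for Cd59a, Cr1l and Vim, to set groups beside their CPM. The deposited table of all libraries holds the same counts (largest difference 0). Symbols came from GENCODE M39 for 56310 of 57010 gene IDs.

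Counts were rounded, the libraries of control mouse 5 summed, and genes kept by filterByExpr (minimum count 10, minimum total 15). The main test was the quasi-likelihood test of edgeR 4.0.16 in R 4.3.3 with TMM factors, 1 fit over 4 groups and Benjamini-Hochberg adjustment over 15034 genes in each of 6 comparisons. SE is the log2 fold change divided by the square root of F. CPM divide counts by the TMM-scaled library size.

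The labels give each sample's mouse, so samples of 1 number are paired by label. The main test had the group alone as its term and did not use this pairing, which entered the fits only with the mouse as a block. The deviations of paired samples from group means correlated by −0.00161 in the median of 18 pairs (−0.184 to 0.377), with 8 pairs over 0.1. Alternatives were DESeq2 1.42.0, other factors, filters and samples, each sample left out, the mouse as a block, and offsets for sequence in 1 transcript, added later. All 8 genes, every gene of the wider list called in senescent against control MEFs or in either dose against senescent MEFs, and the 3 most similar genes of each called gene are named, apart from 2 genes not reported here. The genes and lists were chosen with earlier results of these data known.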

Additional observations from a re-analysis of the deposited data

How the results depend on the processing

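Of 777 log2 fold changes of the 7 tested genes under the alternatives, 695 kept their direction and their side of the threshold, 40 lost a call, 20 gained one and 22 turned direction. Some of these values could not differ freely. The deposited table of all libraries holds the same counts as the main fit, so its values could not change. Calls by the adjusted p alone reuse the main fit, so their values could not turn direction. Cd55 in senescent against control MEFs, and Cd55, Serping1, C1ra and C4b against control MEFs at both doses, kept their calls under every alternative in which they were fitted. The calls against senescent MEFs depended on the setting, and beyond the offsets and the smaller sets of samples or genes the cause was not tested.

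Of the 7 genes, 2, 3 and 1 were called in senescent against control MEFs and at 100 and 300 μg/mL against senescent MEFs. With the mouse as a block (the pairing by the labels) these counts were 1, 1 and 0, and with libraries 5(1) and 5(2) as separate samples also 1, 1 and 0. Library 5(2) alone gave 1 in senescent against control MEFs and 1 at 100 μg/mL, and library 5(1) alone gave 0 at 300 μg/mL. A minimum of 10 counts in every sample gave 1 in senescent against control MEFs, 0 at 300 μg/mL and 2 at 300 μg/mL against control MEFs, where 4 were called. This filter removes Cd55, Cd46 and C4b, which fall below 10 counts in control samples. Their calls were therefore not tested under it, that of Cd55 at 300 μg/mL included. Fits of only the 2 groups compared gave 1 in senescent against control MEFs. DESeq2 called 3 at 300 μg/mL, adding C1ra (adjusted p = 0.017) and Serping1 (adjusted p = 0.00535), and no filter beyond 1 count gave 2. With 1 sample left out the counts were 1 to 2, 0 to 2 and 0 to 1. Without senescent mouse 4 the 1 call at 300 μg/mL was Serping1 (adjusted p = 0.0339) and not Cd55.

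Of the wider list, 6, 3 and 1 genes were called in the same comparisons, and 13 and 14 against control MEFs at 100 and 300 μg/mL. The block gave 3, 1 and 0. The minimum of 10 counts, which leaves fewer genes of the list to test, gave 2 in senescent against control MEFs, 0 at 300 μg/mL, and 6 and 5 against control MEFs. Fits of 2 groups gave 2 in senescent against control MEFs. Separate libraries of control mouse 5 gave 1 at 100 μg/mL and 0 at 300 μg/mL, library 5(2) alone 1 at 100 μg/mL, and library 5(1) alone 0 at 300 μg/mL. No filter gave 6 at 100 μg/mL and 3 at 300 μg/mL, and DESeq2 3 at 300 μg/mL. With 1 sample left out the list had 2 to 6, 0 to 2 and 0 to 1 calls, and 8 to 12 at 100 μg/mL against control MEFs, with the 2 of senescent against control MEFs without control mouse 4 and the 8 without mouse 6 at 100 μg/mL.

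None of the values that turned direction was called. Between the doses (300 against 100 μg/mL), the offsets gave 0.15 for C1ra, −0.086 for Cd59a and 0.25 for Masp1, and with the block added 0.17, −0.083 and 0.17. C4b was −0.052 with the block, and Cd59a −0.00062 with the minimum of 10 counts. With 1 sample left out, C4b was −0.22 to 0.61, Cd59a −0.040 to 0.16 and Serping1 −0.41 to 0.047. Against control MEFs, Cd59a at 300 μg/mL was 0.018 with library 5(2) alone, and with 1 sample left out it was −0.17 to 0.13 at 100 μg/mL and −0.16 to 0.11 at 300 μg/mL. Masp1 at 300 μg/mL against senescent MEFs was −0.047 to 0.80 with 1 sample left out.

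Over all genes, 1266 were called in senescent against control MEFs (699 in fits of 2 groups). At 100 μg/mL against senescent MEFs 405 were called (774 by DESeq2, 800 with no filter, 168 in fits of 2 groups, 136 to 365 with 1 sample left out). At 300 μg/mL 246 were called (605 by DESeq2, 580 with no filter, 378 with the offsets, 101 in fits of 2 groups, 46 to 220 with 1 sample left out). Between the doses 1 was called, and 0 to 2 under the alternatives. The counts of C3, Cd46 and C4b summed to at most 96 in any group, and how far depth or the spread between mice limits their tests was not tested.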
